A study of Bos taurus with 4 samples.

Results

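The 8 granulosa cell pools of this bovine study were divided by the signal of STAR and TIMP1, and the genes that accompanied that division are described here. The sides were chosen by the measured STAR and TIMP1 signal of these same arrays: on each of the 4 two-colour arrays the pool with more STAR and TIMP1 signal is called the high pool and its partner the low pool. Pools 1, 6, 7 and 4 were the high pools of arrays 1 to 4, and pools 5, 2, 3 and 8 were the low pools, so that 4 of the 8 pools fell on each side. The granulosa cells came from Holstein cows in commercial embryo production, 94 cows in the design text, after ovarian stimulation and a gonadotrophin-free coasting interval. Donors were classed as good or poor by the developmental competence of their oocytes, and every array set a good-donor pool against a poor-donor pool. Pools 1 and 4 were good-donor high pools, and pools 6 and 7 were poor-donor high pools. Of the low pools, 2 and 3 came from good donors and 5 and 8 from poor donors. The high pool was labelled with Cy5 on arrays 1 and 3 and with Cy3 on arrays 2 and 4, so that a constant dye effect cancels in the mean over arrays. Each pool combined cells of several cows, and the labels, which class all samples as in vitro, do not say which or how many. All pools shared the same stimulation, breed and linear RNA amplification.

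Granulosa cells line the ovarian follicle, convert androgen into oestradiol while it grows, and turn into progesterone-secreting luteal cells after the luteinising hormone surge. STAR encodes the steroidogenic acute regulatory protein, which carries cholesterol to the inner mitochondrial membrane, where CYP11A1 cleaves its side chain and steroid synthesis begins. TIMP1 encodes a secreted inhibitor of matrix metalloproteinases and is a known product of granulosa cells around ovulation. Both genes are therefore commonly followed as granulosa cells approach or enter luteinisation.

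The 8 pools gave comparable arrays, with 64.3% to 72.7% of 43794 probes above the negative controls and median probe intensities of 49 to 58 in Cy5 and 121 to 164 in Cy3. The analysis covered 12250 genes, each read from its brightest probe, that were above background in at least 4 of the 8 pools. The defining granulosa markers FSHR, CYP19A1, AMH and INHA were above background in 4 of 4 high and 4 of 4 low pools, and FOXL2 in 3 high and 4 low pools. Values are log2 ratios of high over low pool within an array, where 1 is a 2-fold difference, or normalised log2 intensities of single pools, called levels. Since the outcome chose the sides, the high over low values are a description and carry no test. The STAR and TIMP1 ratios show only how the sides were chosen.

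The STAR level in the high pools was 12.42 in pool 1, 10.77 in pool 6, 13.22 in pool 7 and 10.59 in pool 4. In the low pools it was 9.91 in pool 5, 8.50 in pool 2, 8.97 in pool 3 and 9.46 in pool 8. The sides did not overlap, pool 7 was the highest and pool 2 the lowest. The high over low ratio of STAR was 2.51, 2.27, 4.25 and 1.14 on arrays 1 to 4, a mean of 2.54 ± 1.29 (SD, n = 4). Its 2 other probes gave means of 2.60 and 1.32.

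The TIMP1 level was 12.64, 11.79, 13.29 and 11.42 in high pools 1, 6, 7 and 4. It was 10.61, 9.13, 8.82 and 9.49 in low pools 5, 2, 3 and 8. Here too the sides were separate, and pools 7 and 1 again stood at the top. Its ratio was 2.04, 2.66, 4.47 and 1.93 on arrays 1 to 4, a mean of 2.77 ± 1.18 (SD, n = 4), and a second probe gave 2.99. Both genes were furthest apart on array 3, which paired pool 7 with pool 3, while the narrowest STAR pair was on array 4.

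**Figure D1:**
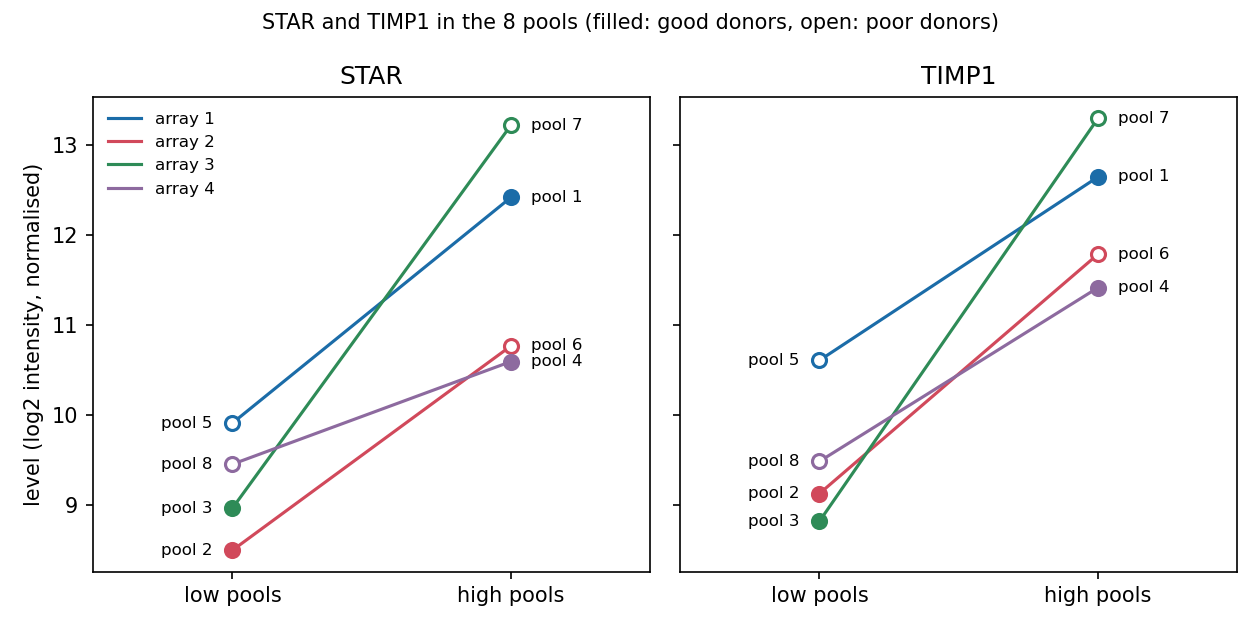
Normalised log2 intensity of STAR (left) and TIMP1 (right) in each pool, with a line joining the pools of an array, filled circles for good donors and open circles for poor donors. The 4 high pools lie above the 4 low pools in both panels, with 1 good and 1 poor pool on each line, and the steepest line joins pools 3 and 7.

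Across the genome the 4 arrays shared little of this division. The correlation of high over low ratios between arrays, taken across the 12250 genes, lay between -0.02 and 0.22, as a description, since genes are not independent replicates. It was 0.17 for arrays 1 and 3 and 0.22 for arrays 2 and 4, pairs whose high pools share a dye. For the pairs with opposite dyes it lay between -0.02 and 0.05. The same sign on all 4 arrays was found in 823 genes higher in the high pools (6.72% of genes) and in 601 lower (4.91%). The median gene had a mean ratio of 0.0047 and an SD of 0.21 over arrays. A narrow group stood far from this median: 12 genes were at least 2-fold higher in the high pool on each array (0.0980%), STAR and TIMP1 among them, and none was at least 2-fold lower (0%). At 1.5-fold on each array there were 25 genes higher (0.204%) and 0 lower (0%). The levels of the high and low pools did not overlap in 207 genes higher (1.69%) and 107 genes lower (0.873%). In pooled tissue, fewer cells of a kind and less RNA per cell cannot be told apart, which holds for each difference described here.

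The 10 other genes at 2-fold or more on every array were XCL2, GFPT2, IGF2, STEAP1, XIRP1, PCOLCE2, BMP2, TNN, ANKRD1 and TRIB1, ordered by their weakest array. The 15 leading genes were completed by COL1A2, THBS1, PDGFRA, PLIN2 and NDP. They comprise secreted signals, matrix proteins and their modifiers, a receptor, metabolic and lipid droplet genes, and stress or cytoskeleton genes. Their mean ratios ran from 1.10 to 2.72. In 13 of the 15 the high and low pools did not overlap (1.69% of all genes), which their choice favours. Pool 7 held the highest level for 7 of them and pool 1 for 7, whereas pool 3 held the lowest for 8 and pool 2 for 4. Array 3 had the widest ratio for 11 of the 15. At the edge of the 2-fold rule, TRIB1 was just inside with a weakest array of 1.17, and COL1A2 was just outside with 0.97.

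Among the secreted signals, IGF2 was the most even. IGF2 encodes insulin-like growth factor 2, a mitogen of the follicle wall and granulosa cells. Its level was 12.59, 12.11, 10.88 and 11.55 in high pools 1, 6, 7 and 4 and 10.49, 10.18, 8.62 and 9.12 in low pools 5, 2, 3 and 8. The sides were separate by a small margin, between pool 7 and pool 5, because the pools of arrays 1 and 2 were brighter on both sides. Its ratio was 2.09, 1.92, 2.26 and 2.43 on arrays 1 to 4, a mean of 2.18 ± 0.22 (SD, n = 4), and a second, dimmer probe gave 1.18. Unlike STAR, IGF2 was not widest on array 3.

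XCL2 encodes a chemokine of the XC class. Its level was 10.22, 9.61, 11.78 and 10.16 in high pools 1, 6, 7 and 4 and only 7.59, 7.65, 7.71 and 7.94 in low pools 5, 2, 3 and 8. The low pools were nearly alike, and the high pools stood clear of them. The ratio was 2.62, 1.96, 4.07 and 2.22, a mean of 2.72 ± 0.94 (SD, n = 4). A single probe represents it, and since XCL1 is a close paralog in human, cross-hybridisation between such copies was not tested.

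BMP2, a bone morphogenetic protein that signals through SMAD proteins, had levels of 10.19, 9.58, 11.43 and 9.70 in high pools 1, 6, 7 and 4. Its low pools 5, 2, 3 and 8 had 8.66, 8.23, 7.63 and 8.00. All high pools exceeded all low pools, and pool 7 again stood apart at the top. The ratio of BMP2 was 1.53, 1.35, 3.80 and 1.70, a mean of 2.09 ± 1.15 (SD, n = 4), and 1.52 without array 3. BMP4, its relative, was smaller but more even at 0.77, 0.68, 1.27 and 1.03, a mean of 0.94 ± 0.27 (SD, n = 4). NDP, which encodes the Wnt receptor ligand norrin, had 0.83, 0.99, 1.97 and 1.58, and a second probe gave 0.73. Its sides overlapped, since pool 5 exceeded pool 6.

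The matrix genes of the leading group each had their own pool order. PCOLCE2, an enhancer of procollagen processing, had ratios of 2.08, 1.56, 2.51 and 1.44 on arrays 1 to 4, a mean of 1.90 ± 0.50 (SD, n = 4). TNN, which encodes the matrix glycoprotein tenascin-N, had 3.00, 1.90, 1.32 and 1.85, so that array 1 was widest and array 3 narrowest. THBS1 encodes thrombospondin 1, an adhesive glycoprotein that inhibits vessel growth. Its ratio was 1.42, 1.92, 0.97 and 1.82, a mean of 1.53 ± 0.43 (SD, n = 4), and again narrowest on array 3. COL1A2, the alpha 2 chain of type I collagen, had 1.35, 1.82, 1.90 and 0.97, with the highest level in pool 6 at 11.58. Pool 2 had more COL1A2 (9.76) than pool 4 (9.68), so the sides overlapped. The alpha 1 chain that assembles with it, COL1A1, did not keep one sign, at -0.18, 0.79, 0.58 and -0.31.

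GFPT2, which catalyses the first step of the hexosamine pathway from fructose 6-phosphate, was the second gene by weakest array. Its level was 12.74, 10.77, 12.52 and 11.11 in high pools 1, 6, 7 and 4 and 10.29, 8.63, 8.98 and 9.18 in low pools 5, 2, 3 and 8. The sides were separate, and pools 1 and 7 were the brightest. Its ratio was 2.45, 2.14, 3.54 and 1.93, a mean of 2.52 ± 0.71 (SD, n = 4). STEAP1, a membrane protein of the metalloreductase family, had 1.80, 2.28, 3.41 and 1.60, a mean of 2.27 ± 0.81. PLIN2 coats the lipid droplets in which steroidogenic cells store cholesterol esters. Its level was 13.11, 12.71, 13.60 and 13.28 in high pools 1, 6, 7 and 4 and 12.09, 11.83, 12.30 and 12.07 in low pools 5, 2, 3 and 8. Its ratio of 1.10 ± 0.19 (SD, n = 4) was the smallest mean of the 15 and among the most even, with 0.88 to 1.30 across arrays.

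ANKRD1, a nuclear ankyrin repeat protein and well-known target of the Hippo pathway cofactor YAP, had levels of 9.67, 9.50, 12.19 and 8.88 in high pools 1, 6, 7 and 4. In low pools 5, 2, 3 and 8 they were 8.35, 8.15, 7.11 and 7.71. Pool 7 was far above the rest and pool 3 the lowest. The ratio was 1.32, 1.36, 5.08 and 1.18, a mean of 2.23 ± 1.90 (SD, n = 4) that came to 1.28 without array 3. XIRP1, which encodes an actin-binding protein best known from muscle, had 1.53, 1.60, 4.44 and 1.86 and a mean of 1.66 without array 3 in place of 2.36 ± 1.40. TRIB1, a pseudokinase that steers proteins to degradation, had 1.17, 2.00, 1.19 and 1.75, but a second probe of the gene gave a mean of -0.08. PDGFRA, the receptor for platelet-derived growth factor, stood at 0.97, 1.31, 3.37 and 1.47, and its second probe gave 0.07. For TRIB1 and PDGFRA the height of the ratio thus belongs to the brighter probe of the gene.

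**Figure D2:**
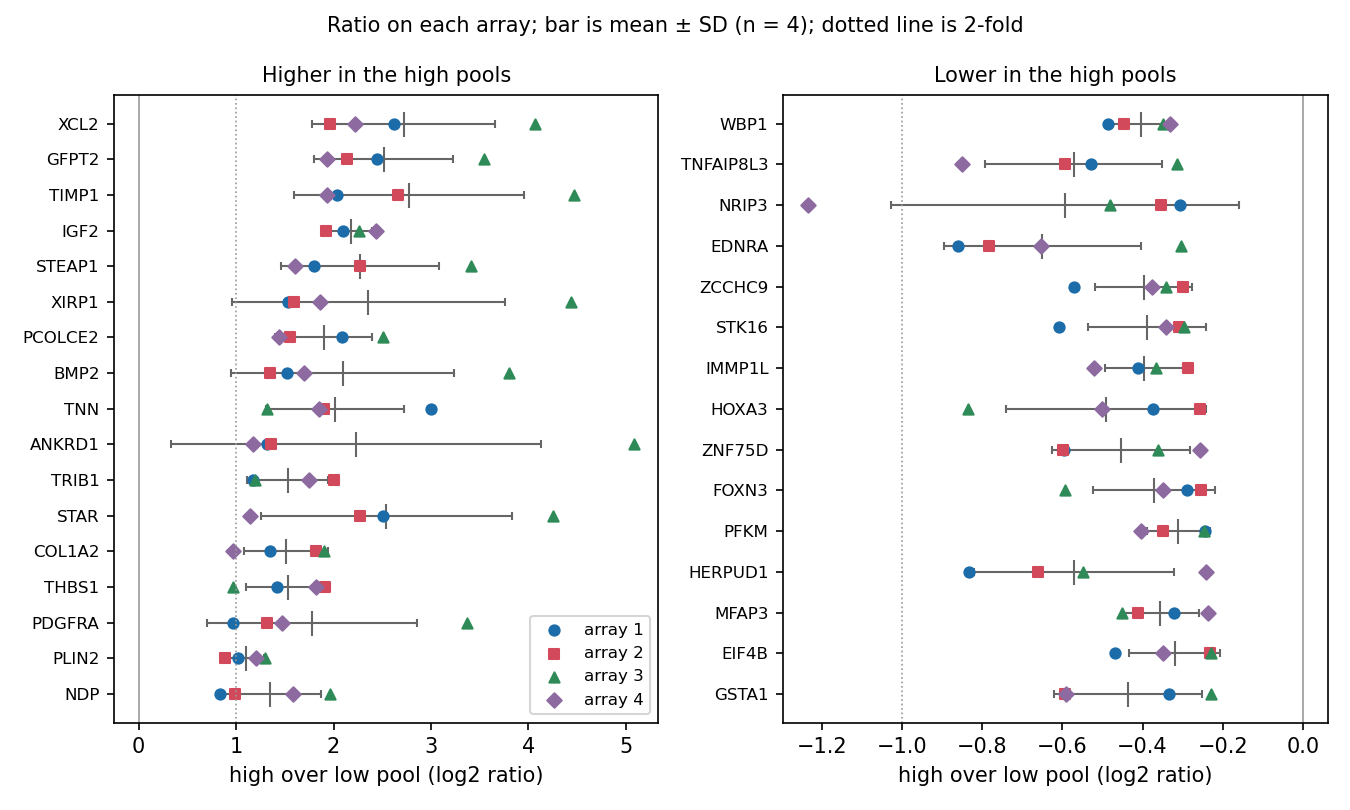
High over low log2 ratio on each array for STAR, TIMP1 and the 15 leading higher genes (left) and the 15 leading lower genes (right), ordered by the weakest array, with a bar for the mean and whiskers for the SD over 4 arrays. Array 3 is the widest for 11 of the 15 higher genes, IGF2 and PLIN2 are the most even of them, and no lower gene passes the dotted 2-fold line on all arrays.

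The leading genes kept one direction in both dyes and both donor classes, as their choice on all 4 arrays requires. The median ratio of the 15 higher genes was 2.18 where the high pool was in Cy5 and 1.73 where it was in Cy3, and 12 of the 15 were wider in Cy5. Where the high pool came from good donors the median was 1.62, and where it came from poor donors 2.09. Arrays 1 to 4 carry 4 such contrasts, namely donor, dye, split and their remainder, and over all genes the split held 30.4% of the summed squared log2 ratios, the dye 29.3%, the donor 20.1% and the remainder 20.1%. Over the 15 higher genes the split held 87.1%, which the choice of these genes fixes.

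Another 8 named genes were at least 1.5-fold higher on every array: AOX1, BMP4, CTHRC1, INTS7, LOC508098, RND3, SELP and SGK1. SGK1, a kinase induced by serum and glucocorticoid, had ratios of 1.48, 1.18, 3.50 and 0.77, a mean of 1.73 and 1.14 without array 3. SELP, the adhesion receptor P-selectin of endothelium and platelets, had 0.79, 1.17, 2.53 and 0.68. CTHRC1, a secreted collagen triple helix protein, had 1.11, 0.83, 2.10 and 0.82. RND3, a small GTPase that loosens the actin cytoskeleton, had 0.84, 0.60, 1.95 and 0.77. All of the 8 genes except LOC508098 had separate high and low pools (1.69% of all genes), which their choice favours. In all, 20 probes passed 2-fold on each array, 14 of them with a gene name and 6 without.

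The genes lower in the high pools differed by far less. The 15 with the largest weakest array had mean ratios of -0.65 to -0.31 and were WBP1, TNFAIP8L3, NRIP3, EDNRA, ZCCHC9, STK16, IMMP1L, HOXA3, ZNF75D, FOXN3, PFKM, HERPUD1, MFAP3, EIF4B and GSTA1. In 11 of them the sides did not overlap (0.873% of all genes), which their choice favours. Of their 13 further probes 11 had the same sign, but with small means of -0.18 to -0.02. EDNRA, the type A endothelin receptor, had levels of 8.18, 8.29, 8.80 and 8.74 in high pools 1, 6, 7 and 4 and 9.04, 9.07, 9.10 and 9.40 in low pools 5, 2, 3 and 8. Every low pool exceeded every high pool, and the ratio was -0.86, -0.78, -0.30 and -0.65, a mean of -0.65 ± 0.25 (SD, n = 4). A second EDNRA probe gave -0.11.

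HERPUD1, an endoplasmic reticulum protein induced by misfolded proteins, had ratios of -0.83, -0.66, -0.55 and -0.24, a mean of -0.57 ± 0.25 (SD, n = 4). TNFAIP8L3, a carrier of phosphoinositides, had a mean of -0.57 ± 0.22, with 11.05 to 11.17 in the high pools and 11.47 to 12.02 in the low pools. The high pools of TNFAIP8L3 were nearly identical, so the spread of its ratio lay in the low pools. Among the metabolic genes, GSTA1, a glutathione transferase abundant in steroidogenic cells, stood at -0.44 ± 0.18 with overlapping sides. PFKM, the muscle form of the glycolytic enzyme phosphofructokinase, stood at -0.31 ± 0.08. HOXA3, a homeobox factor, had -0.49 ± 0.25, and NRIP3 had -0.59 ± 0.43, with 0.11 from its second probe.

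Gene lists were read by how many members were higher, or lower, on all 4 arrays, against 6.72% and 4.91% of all genes, and a share near these is no result about a list. A larger share is a description and no test. The lists were chosen with earlier results of these data known, some genes sit in several lists, and some leading genes are members. STAR and TIMP1 are left out of these counts, since they defined the sides. List means and medians keep them as members. Of the 14 other measured progesterone synthesis genes none was higher and none lower on all arrays. The median ratio of this list, with STAR kept in it, was 0.05 against 0.0047 over all genes. CYP11A1, the side-chain cleavage enzyme, had 0.67, 0.98, -0.00 and 0.07 on arrays 1 to 4, a mean of 0.43 ± 0.47 (SD, n = 4). HSD3B1, which makes progesterone from pregnenolone, had 0.94, 1.45, -0.02 and 0.23, a mean of 0.65 ± 0.67. Both were higher in the high pools of arrays 1 and 2, while the pools of array 3, where STAR was furthest apart, had nearly equal levels (13.21 and 13.21 for CYP11A1). FDX1, the electron donor of CYP11A1, went the same way, at 0.96, 0.28, -0.34 and 0.12. None of the 19 genes of cholesterol synthesis and uptake kept one sign, with list means of 0.53, 0.07, -0.17 and -0.04 on arrays 1 to 4.

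**Figure D3:**
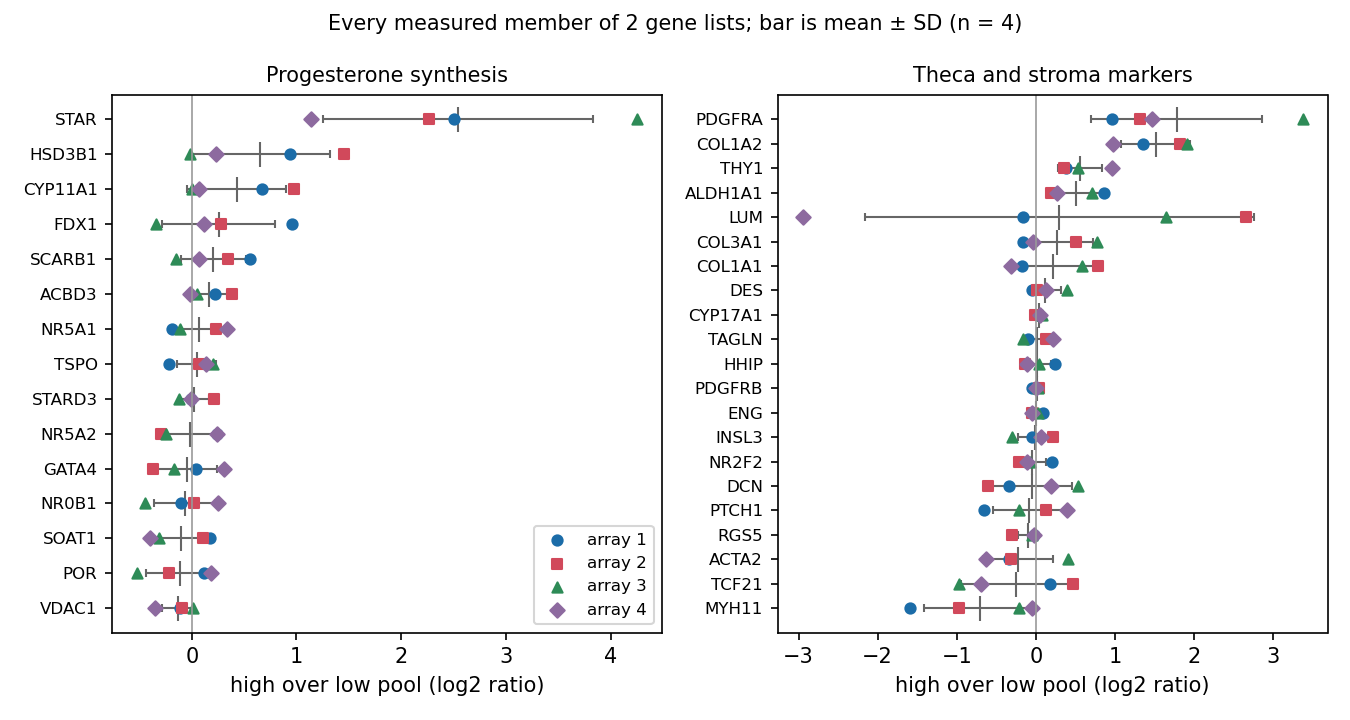
High over low log2 ratio on each array for every measured gene of progesterone synthesis (left, 15 genes) and of the theca and stroma markers (right, 21 genes), ordered by mean, with a bar for the mean and whiskers for the SD over 4 arrays. STAR is above 0 on all arrays by the choice of the sides while no other progesterone gene is, and PDGFRA and COL1A2 lead the right panel while CYP17A1, INSL3 and PDGFRB lie near 0.

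Of 16 measured genes of the ovulatory response, 1 was higher on all arrays (6.25%, against 6.72% of all genes) and none lower. It was CITED4, with a mean of 0.15, and the list means were 0.66, 0.34, -0.19 and -0.26. PTX3 and TNFAIP6, which stabilise the expanding cumulus matrix, were higher in the high pools of arrays 1 and 2 (1.86 and 2.27 for PTX3, 2.38 and 1.98 for TNFAIP6). On arrays 3 and 4 PTX3 had 0.33 and -0.70, and TNFAIP6 had -0.97 and -1.28. The progesterone receptor PGR had 0.31, -0.37, -0.71 and -0.07, and the prostaglandin synthase PTGS2 had 0.12, -0.07, -0.28 and -0.21. LHCGR, the luteinising hormone receptor, had 1.09, 0.21, -0.59 and -0.56. PTX3, TNFAIP6 and LHCGR were thus above 0 on arrays 1 and 2 and, except PTX3 on array 3, below 0 on arrays 3 and 4.

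In the list of luteinisation and luteal function, 1 of 16 genes besides STAR was higher on all arrays, CD9 (6.25%), and 1 was lower, EDNRA (6.25%), shares near those of all genes. CD9, a tetraspanin of the cell surface, had 0.40, 0.17, 1.15 and 0.28. Of 12 genes of gonadotrophin reception and oestradiol synthesis none was higher on all arrays, while 2, HSD17B1 and ESR2, were lower (16.7%, against 4.91% of all genes). HSD17B1, which makes oestradiol from oestrone, had -1.04, -0.30, -0.94 and -0.02, and ESR2, an oestrogen receptor, had -0.21, -0.18, -0.12 and -0.16. FSHR had a mean of -0.07 ± 0.20 and CYP19A1, the aromatase that makes oestrogen, 0.13 ± 0.69 (SD, n = 4). Of 14 prostaglandin genes 1, PTGES3, was higher on all arrays (7.14%) and the list median was 0.0021.

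In the inhibin, activin and follistatin list, 5 of 19 measured genes were higher on all arrays (26.3%, against 6.72% of all genes) and 2 were lower (10.5%, against 4.91%). BMP2, BMP4 and FSTL3 were the 3 of them whose sides did not overlap (1.69% of all genes), and being higher on all arrays favours this. FSTL3, a secreted antagonist that binds activin, had levels of 11.73, 10.13, 12.86 and 10.20 in high pools 1, 6, 7 and 4 and 9.89, 9.61, 9.08 and 9.62 in low pools 5, 2, 3 and 8. Pools 7 and 1 stood out, and the ratio was 1.84, 0.52, 3.78 and 0.59, a mean of 1.68 ± 1.52 (SD, n = 4) and 0.98 without array 3. The related antagonist FST ran the other way, at -0.83, -0.20, -0.45 and -1.10, a mean of -0.64 ± 0.40. The FST level was 13.20 to 13.90 in high pools and 13.89 to 14.41 in low pools, which overlapped through pools 6 and 3. TGFBR3, an inhibin co-receptor, was lower as well, at -0.90, -0.52, -0.23 and -0.21. AMHR2 and BMPR1B, receptors for anti-Müllerian hormone and bone morphogenetic proteins, were the other 2 higher genes, with means of 0.21 and 0.35. The inhibin subunits INHA and INHBA had both signs among the arrays, INHBA at 0.99, -1.64, 1.47 and -1.88, positive on the arrays where the high pool was in Cy5.

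Among the protease inhibitors, 1 of 16 genes besides TIMP1 was higher on all arrays (6.25%, against 6.72% of all genes), and none was lower. It was A2M, the broad inhibitor alpha-2-macroglobulin, at 1.83, 0.01, 1.99 and 0.49. TIMP2 had 0.55, -0.15, 0.71 and -0.06, and TIMP3 had a mean of 0.06 ± 0.17 (SD, n = 4). Of the 19 matrix proteases 4 were higher on all arrays (21.1%, against 6.72% of all genes) and none lower. PLAT, tissue plasminogen activator, had 1.18, 1.26, 3.16 and 0.30, and PLAUR, the urokinase receptor, had 0.43, 1.51, 1.91 and 0.92. MMP19 had 0.45, 2.00, 0.29 and 0.81, and MMP11 had 0.48, 0.22, 1.09 and 1.62. The protease genes were thus widest on different arrays, MMP19 on array 2, PLAT and PLAUR on array 3 and MMP11 on array 4.

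In the extracellular matrix list 6 of 25 genes were higher on all arrays (24%, against 6.72% of all genes) and none lower. Its median ratio was 0.22, and 0.073 without array 3. Besides COL1A2 and THBS1 these were SPP1, NID2, FN1 and COL18A1. SPP1, which encodes the secreted phosphoprotein osteopontin, had 0.40, 1.75, 1.03 and 2.10, and NID2, a basement membrane linker, had 1.04, 0.69, 1.02 and 0.57. NID2 was even across arrays (0.83 ± 0.23) although its sides overlapped. In the IGF system IGF2 and IGFBP5 were the 2 of 16 genes higher on all arrays (12.5%, against 6.72% of all genes). IGFBP5, which binds insulin-like growth factors, had 0.34, 0.94, 2.34 and 1.15, and the receptor IGF1R had 0.42, 0.05, -0.14 and 0.61.

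Lists of general cell state are likewise set against 6.72% of all genes higher and 4.91% lower. Of 22 immediate early genes 3 were higher on all arrays (13.6%), SGK1, CCN2 and FOSL2, and none was lower. CCN2, a matricellular growth factor, had 0.31, 0.32, 1.98 and 0.59. The cell cycle list had 5 of 35 higher (14.3%), CDK1, PCNA, MCM4, MCM5 and CDKN1C, with list means of -0.04, 0.43, -0.09 and 0.20. Its means were above 0 on arrays 2 and 4, where the high pool was in Cy3. In the atresia and apoptosis list BCL2, GADD45A and IGFBP5 were the 3 of 16 higher (18.8%). BCL2 had only 0.09, 0.09, 0.04 and 0.08, with overlapping sides. GADD45A had a mean of 0.82, with 0.05 from a second probe. Of 26 glycolysis and hypoxia genes, 2, PGAM1 and NDRG1, were higher (7.69%) and 1, ALDOC, lower (3.85%). None of 17 interferon response genes kept one sign, with list means of -0.28, 0.43, -0.58 and 0.72. ISG15 of that list, an interferon-induced ubiquitin-like protein, had -0.96, 1.32, -1.47 and 2.04, a wide range that followed the dye of the high pool.

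**Figure D4:**
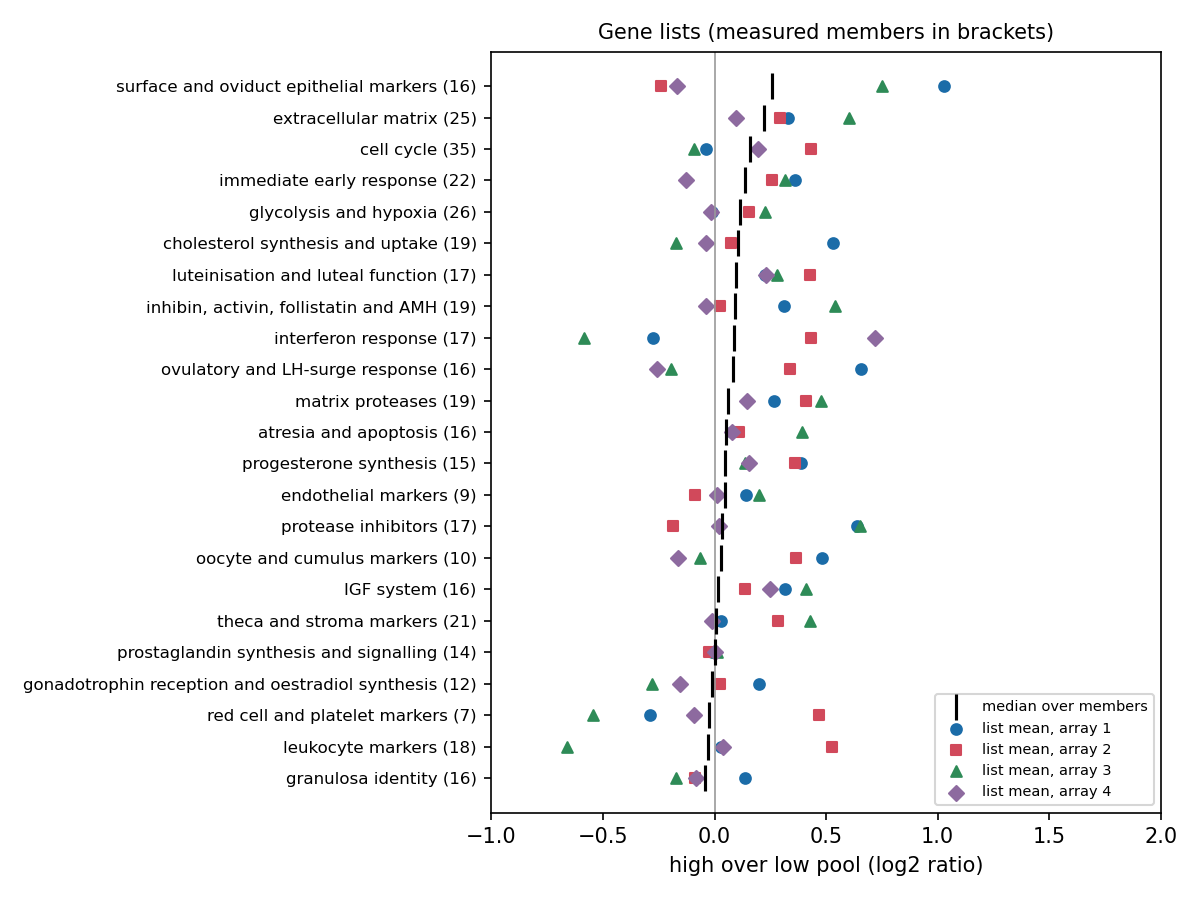
High over low log2 ratio of 23 gene lists, with symbols for the mean over members on each array and a vertical bar for the median of the members' mean ratios; the number of measured members is in brackets. Most lists scatter around 0 with arrays on both sides. The extracellular matrix list, with a median of 0.22, has its 4 arrays between 0.10 and 0.60. The matrix protease, IGF system and atresia lists also lie above 0 on all 4 arrays. So do the progesterone and luteinisation lists, which hold STAR. The IGF system list, which holds IGF2, had a median of only 0.016, and of -0.036 without array 1. STAR and TIMP1, which defined the sides, are kept as members of their lists.

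Markers of other cell kinds were read beside these values. Of 21 theca and stroma markers, 4 were higher on all arrays, PDGFRA, COL1A2, THY1 and ALDH1A1 (19.0%, against 6.72% of all genes), and 2 lower, MYH11 and RGS5 (9.52%, against 4.91%), with a list median of 0.0076. The mean level of the list was 8.16 to 8.53 in high pools and 7.83 to 8.32 in low pools. The defining theca genes were above background in all pools, and CYP17A1 stood at 0.04 ± 0.04 and INSL3 at -0.02 ± 0.22 (SD, n = 4). LUM, a stromal proteoglycan, ran at -0.17, 2.65, 1.65 and -2.95. The part of stromal cells in the COL1A2, PDGFRA and other matrix ratios was not tested.

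Epithelial markers were higher on array 1 (list mean 1.03) and array 3 (0.75) but not on arrays 2 and 4 (-0.24 and -0.17), with 1 of 16 higher on all arrays (6.25%, against 6.72% of all genes). Their mean level ran from 8.82 to 10.01 in high pools and from 8.06 to 9.81 in low pools. That gene was KRT8, a keratin that granulosa cells can also express, at 1.04, 0.02, 4.39 and 0.48, with a mean of 1.48 and of 0.51 without array 3. KRT18, its partner, had 0.51, -0.01, 4.31 and 0.25, so that pool 7 exceeded pool 3 for both keratins as it did for STAR, TIMP1 and ANKRD1. The oviduct marker OVGP1 had levels of 11.30, 10.96, 6.45 and 9.88 in high pools 1, 6, 7 and 4 and 6.76, 10.41, 6.74 and 12.42 in low pools 5, 2, 3 and 8. OVGP1 was thus low in pools 3, 5 and 7, on both sides of the split. The part of epithelial cells in the high over low ratios was not tested.

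Leukocyte, red cell and platelet, and oocyte lists had 0 of 18, 0 of 7 and 0 of 10 genes of constant sign. Of all genes 6.72% were higher and 4.91% lower on all arrays, and with so few members 0 is no result about a list. PTPRC, the pan-leukocyte marker, stood at -0.02 ± 0.20 (SD, n = 4), but the mean over the leukocyte markers reached 0.53 on array 2 and -0.66 on array 3. The mean leukocyte level was 7.03 to 7.67 in high pools and 7.07 to 7.69 in low pools. Of 9 endothelial markers 2, CLDN5 and ESAM, were higher on all arrays (22.2%, against 6.72% of all genes). Their means were small, 0.24 for CLDN5 and 0.05 for ESAM, and the sides of both overlapped. PECAM1 was below background in all pools and CDH5 stood at 0.02 ± 0.10. The mean endothelial level was 6.71 to 6.81 in high pools and 6.59 to 6.90 in low pools. HBB, a haemoglobin chain, had -1.95, 0.61, -1.99 and -0.65. Of the 16 granulosa identity genes, 1, AMHR2, was higher on all arrays (6.25%) and 3, ESR2, HSD17B1 and FST, were lower (18.8%, against 4.91% of all genes), and the list median was -0.04.

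The study's own comparison, poor over good donors, is crossed with this split. A gene higher in the high pool on all arrays is by construction lower in the poor pool on arrays 1 and 4 and higher on arrays 2 and 3. Over all genes, 648 had the same sign on all arrays higher in poor donors (5.29%) and 690 lower (5.63%), 0 were 2-fold apart on each array in either direction (0%), and at 1.5-fold there were 2 higher (0.0163%) and 1 lower (0.00816%). In limma with a dye term, 0 of 30785 probes passed a Benjamini-Hochberg adjusted p of 0.05 (0%), the smallest adjusted p was 0.851, and 1792 probes had an unadjusted p under 0.05. With the split in place of the dye as a term, 0 probes passed, the smallest adjusted p was 0.737, and 1223 had an unadjusted p under 0.05. For STAR, TIMP1 and the leading genes the split itself enters the spread of the donor fit, so their donor differences are given as values, with no p. The fitted poor minus good difference of STAR was 0.72 and that of TIMP1 was 0.79. Over the 15 higher genes its size ran from 0.01 for PLIN2 to 0.99 for ANKRD1. IGF2 stood at -0.09 between donors against 2.18 across the split. For a gene of 1 sign on all arrays the donor value is always the smaller in size, so their choice fixes this order.

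**Figure D5:**
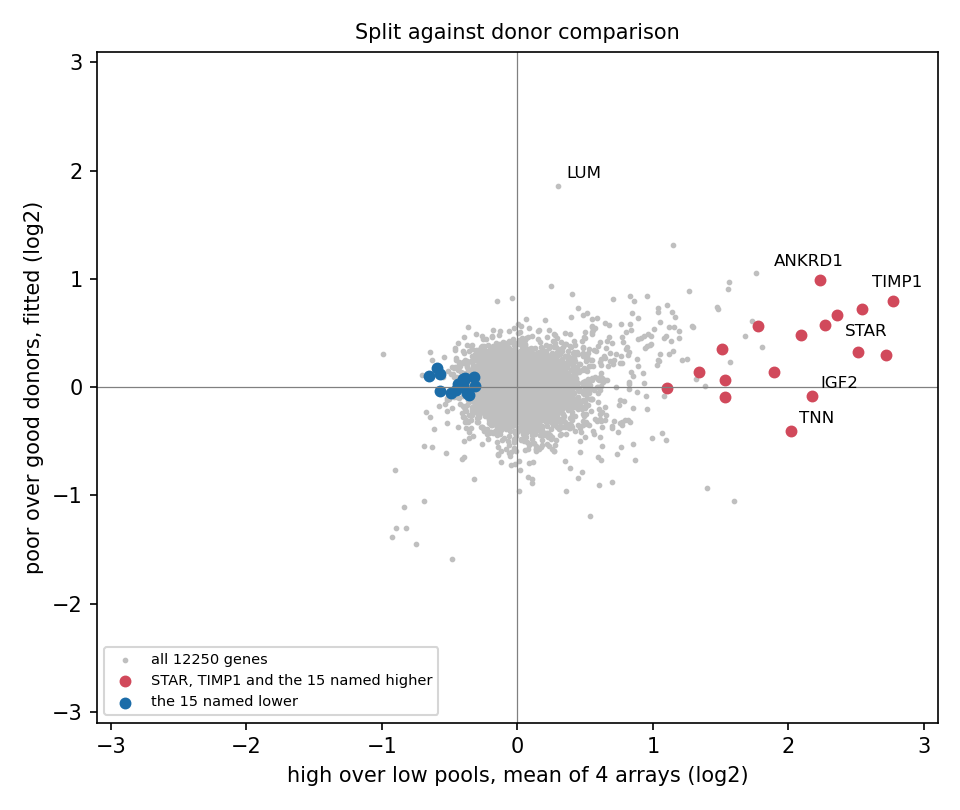
Mean high over low log2 ratio (horizontal) against the fitted poor over good log2 difference (vertical) for 12250 genes, with STAR, TIMP1 and the 15 leading higher genes in red and the 15 leading lower genes in blue. The red genes reach 2.77 across the split and stay within 0.99 of 0 between donors, where LUM lies highest. Red and blue genes have 1 sign on all arrays, which by itself puts each nearer 0 between donors than across the split.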

How the data were processed

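Scanner tables hold spot intensity and local background intensity as deposited, without normalization, per the file headers. The authors also deposited log2 ratios of the probes in a series matrix, with a normalization not stated in the labels or headers. It correlated at 0.971 to 0.980 with the loess ratios, ran as poor over good with medians of 0.000466, 0.000246, 0.00262 and -9.92e-05, and served as an alternative. Median spot intensities were corrected with limma 3.58.1 (R 4.3.3) by normexp with offset 50 and by loess (span 0.3) with control spots at weight 0. Each ratio was then turned to high over low. Levels per pool came from Aquantile scaling between arrays. A probe was above background where it exceeded the mean of 153 negative controls by 2 SD, and 30785 of 43794 probes (70.3%) were so in at least 4 pools. Of the probes, 21790 had 1 gene symbol, 0 had several and 22004 were unnamed. Symbols were matched to the ARS-UCD2.0 annotation, where 20025 were current, 1524 were updated and 241 were kept. No probe sequence or coordinate is printed.

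Ratios are described as 4 values with mean and SD. The donor difference was fitted by limma lmFit and eBayes with a dye term and adjusted by the Benjamini-Hochberg method. Named genes were STAR, TIMP1, the 15 higher and 15 lower genes with the largest weakest-array ratio, up to 4 genes of each of 23 lists, 13 fixed genes, and genes above background on 1 side of the split alone. Genes outside this rule that complete a list's count, the 8 further genes at 1.5-fold, and COL1A1 and LUM were chosen after their values were seen. The split, the lists and the rule were chosen with earlier results of these data known. Nothing in the labels says that pools share no cows, so the spread may in part be technical. Precision is limited by there being 4 arrays.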

Additional observations from a re-analysis of the deposited data

Results flagged for a closer look

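Among 32 named genes and 23 lists, 55 in all, 5 had 1 array far from the other 3. No chance rate can be set beside this count. STAR and TIMP1 defined the sides, and the other named genes were chosen on these same 4 ratios. On array 3 the ratio was 4.44 for XIRP1 (1.53 to 1.86 on the other arrays), 3.80 for BMP2 (1.35 to 1.70) and 5.08 for ANKRD1 (1.18 to 1.36). The atresia and apoptosis list mean was 0.39 on array 3 and 0.08 to 0.11 on the others. STK16 had -0.61 on array 1 and -0.34 to -0.30 on the others. Why pools 7 and 3 lay so far apart in these genes was not tested.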

How the results depend on the processing

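The count of genes at least 2-fold higher on every array, 12, was 9 to 14 over the normalization, background, filter and probe alternatives and 15 to 18 with 1 array left out, and the count at least 2-fold lower was 0 in all of these. It was 25 at 1.5-fold, and with non-overlap of pool levels in place of the fold the counts were 207 higher and 107 lower (183 and 143 with quantile scaling of all channels). With 1 array left out, genes higher on every remaining array numbered 1392 to 1700 in place of 823 and genes lower 1148 to 1484 in place of 601, as 3 signs replace 4. The median of the luteinisation list with STAR kept in it, 0.09, ran from 0.0874 to 0.24 with 1 array left out, the highest without array 3. With 1 array left out the median turned sign in 12 of the 23 lists, as for epithelial markers (0.26, and -0.033 without array 1) and interferon response (0.086, and -0.093 without array 4). It kept its sign in 11, among them extracellular matrix (0.073 to 0.30) and cell cycle (0.0048 to 0.19). None of the 15 higher and 15 lower genes turned sign under any alternative run. Leaving 1 array out could not turn them, since they were chosen for the same sign on every array. The mean ratio was 1.38 for PCOLCE2, 1.33 for TNN, 0.72 for NDP, -0.21 for HOXA3 and -0.17 for IMMP1L from mean spot intensity. From the mean of a gene's probes it was 0.73 for TRIB1, 0.92 for PDGFRA, 1.68 for IGF2, -0.38 for EDNRA, -0.24 for NRIP3, -0.15 for FOXN3, -0.09 for MFAP3, -0.17 for STK16, -0.20 for WBP1 and -0.27 for ZNF75D. The ratios pair the 2 pools of each array, and no further pairing was possible because the replicate numbers mark single arrays. Limma called 0 probes between donors under every covariate, normalization, filter and leave-one-out alternative that was run, with smallest adjusted p of 0.469 to 1.00, and the fit without a dye term had 1230 probes and that with both terms 2165 at an unadjusted p under 0.05. Probes near background in Cy5, the dimmer channel, limit what can be read of weakly expressed genes.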

Other observations

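ANKRD55, GPR171, CYM and F12 were above background in all pools of 1 side and in none of the other. They passed the filter on dim probes by their bright side alone, and no share of all genes is set beside them. Folds were taken against the higher of the dim probe's own signal and the lowest signal above background. For ANKRD55 this gave a bound of at least 1.41-fold higher in the high pools. For GPR171, CYM and F12 it gave only the measured mean ratio, which is no lower limit. GPR171 was 1.10-fold higher in the high pools, CYM 1.07-fold lower and F12 1.15-fold lower. These folds are small and the levels lie close to background. They were 6.56 in the high and 6.05 in the low pools for ANKRD55, and 6.48 and 6.34 for GPR171.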
